A study of Homo sapiens with 4 samples.

Results

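Exon inclusion was described in the control cells of a knockdown experiment, for skipped (cassette) exons that were well enough covered to be measured. A skipped exon entered the description when an event around it had at least 20 informative reads in the control file, meaning reads that fit only the isoform with the exon (inclusion-only) or only the isoform without it (exclusion-only). For each exon the event with the most such reads was kept, which left 21303 exons of the 35825 listed in the control file (59.5%) and of 38121 listed in either group's file. The cells were MDA-LM2, selected from the human breast tumour line MDA-MB-231 for its spread to the lung, and the control group (siCtrl) was transfected with a non-targeting small interfering RNA by lipofection and harvested after 48 h. Per the labels the study held 4 libraries, 2 of them siCtrl and 2 with SNRPB2 silenced, and only the control values are used here. The control file gives 1 value of ψ (inclusion level, from 0 where no transcript includes the exon to 1 where all do) for each event in the group, so no value below has a spread between replicates and no test was made. Both control libraries carried the transfection itself, so the values describe transfected and not untouched cells.

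In splicing, the spliceosome joins exons by pairing the 5' splice site at the end of each with the 3' splice site before the next. A cassette exon can be passed over, and SR proteins, hnRNPs and factors such as PTBP1, MBNL1 and RBFOX2 shift that choice in either direction. A coding exon whose length is a multiple of 3 nt adds or removes whole amino acids, whereas other lengths shift the reading frame. An exon that brings a premature stop codon (a poison exon) sends the transcript to nonsense-mediated decay (NMD), through which many splicing factors limit their own level.

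The control file listed 42159 events with 100579230 reads assigned to them, of which 10124300 were inclusion-only, 1268806 exclusion-only, 29763391 fitted both isoforms and 59422733 (59.1%) fitted neither. A read can count for several events. Members had a median of 126 informative reads (quartiles 51 and 349), and the interval that the authors' file gives around ψ had a median width of 0.07 and was wider than 0.2 for 18.7% of them. At the read minimum, the 1166 exons with 20 to 24 informative reads had a median ψ of 0.31 and a median interval width of 0.22, and the 1367 exons with 15 to 19 reads, which were left out, had 0.36 and 0.26. The members fell in 8174 genes of GENCODE release 29, 96.4% of them in protein-coding genes, and 96.3% were annotated exons. Of all members 28.8% shared a skipping junction with another member, and so shared its exclusion-only reads, and 24.8% overlapped another member, in some cases as versions of an exon with another boundary. The identity of the cells was checked on reads that fit an isoform of the deepest event of each marker. Of the mesenchymal markers 6 of 10 had an event, led by CD44 with 50227 reads and AXL with 5343. The mesenchymal markers VIM, MSN, CDH2 and CAV1 had no event. Among epithelial markers 4 of 10 had an event, with 13755 reads for KRT8, 479 for ESRP2, 10 for ESRP1 and 3 for CDH3. No event was listed for CDH1, EPCAM, KRT18, KRT19, CLDN4 and GRHL2. Only skipped-exon events are listed, so a gene without an event may still be expressed. Blood and endothelial markers had at most 51 reads (PTPRC). The estrogen and progesterone receptor genes ESR1 and PGR had 1 read each.

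Sequences of exons on which the account below turns show how small many of these inserts are and how similar alternative exons can be. They are reference sequences of GENCODE release 29 transcripts (hg38), 5' to 3' on the transcribed strand. In the first set the last 2 bases, next to the 5' splice site, are in capitals.
KDM1A 12 nt exon, chr1:23066060-23066071, plus strand: gacactgtcaAG
MEF2D 21 nt exon, chr1:156476494-156476514, minus strand: actgaggaccatttagatcTG
MEF2A 24 nt exon, chr15:99703362-99703385, plus strand: tcggaggaagaggaattggagtTG
FLNA 24 nt exon, chrX:154357251-154357274, minus strand: tgtcaatcggaggtcacgggctAG
PICALM 24 nt exon, chr11:85978070-85978093, minus strand: aatggcatgcattttccacaatAC
TIA1 33 nt exon, chr2:70229059-70229091, minus strand: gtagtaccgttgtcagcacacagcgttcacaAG
PTBP2 34 nt exon, chr1:96806419-96806452, plus strand: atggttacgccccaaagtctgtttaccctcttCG
CLTA 36 nt exon, chr9:36210625-36210660, plus strand: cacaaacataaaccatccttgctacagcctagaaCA
MYL6 45 nt exon, chr12:56160626-56160670, plus strand: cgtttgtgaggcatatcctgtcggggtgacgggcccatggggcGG
CLTA 54 nt exon, chr9:36209267-36209320, plus strand: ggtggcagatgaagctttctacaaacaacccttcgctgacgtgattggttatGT
RAC1 57 nt exon, chr7:6398662-6398718, plus strand: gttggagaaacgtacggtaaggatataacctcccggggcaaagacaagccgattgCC
SPTAN1 60 nt exon, chr9:128592983-128593042, plus strand: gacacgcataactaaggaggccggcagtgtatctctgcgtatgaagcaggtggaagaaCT
ENAH 63 nt exon, chr1:225504991-225505053, minus strand: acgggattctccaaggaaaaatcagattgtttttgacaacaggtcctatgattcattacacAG
CTTN 111 nt exon, chr11:70421470-70421580, plus strand: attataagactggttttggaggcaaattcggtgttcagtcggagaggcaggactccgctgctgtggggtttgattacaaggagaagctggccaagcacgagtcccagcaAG
STAG2 111 nt exon, chrX:124090854-124090964, plus strand: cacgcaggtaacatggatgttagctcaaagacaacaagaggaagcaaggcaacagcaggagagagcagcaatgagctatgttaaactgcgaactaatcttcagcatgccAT

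In U2AF1 and TPM1 a pair of exons of the same length lies side by side, and capitals mark the bases that differ within the pair. The U2AF1 exons were identical at 44 of 67 bases (65.7%) and the TPM1 exons at 43 of 76 (56.6%).
U2AF1 67 nt exon, chr21:43101366-43101432, minus strand: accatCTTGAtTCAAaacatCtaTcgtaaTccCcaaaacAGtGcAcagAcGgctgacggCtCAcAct
U2AF1 67 nt exon, chr21:43100453-43100519, minus strand: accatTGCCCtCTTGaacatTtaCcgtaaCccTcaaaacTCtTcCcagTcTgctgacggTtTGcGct
TPM1 76 nt exon, chr15:63061198-63061273, plus strand: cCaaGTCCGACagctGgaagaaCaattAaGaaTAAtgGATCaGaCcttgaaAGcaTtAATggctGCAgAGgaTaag
TPM1 76 nt exon, chr15:63061713-63061788, plus strand: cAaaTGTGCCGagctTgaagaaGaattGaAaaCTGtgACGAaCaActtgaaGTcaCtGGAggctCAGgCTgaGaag

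The TRA2B exon is shown as an example of a poison exon, with the stop codon of an annotated NMD transcript in capitals, starting at base 79 of the exon.
TRA2B 276 nt exon, chr3:185931577-185931852, minus strand: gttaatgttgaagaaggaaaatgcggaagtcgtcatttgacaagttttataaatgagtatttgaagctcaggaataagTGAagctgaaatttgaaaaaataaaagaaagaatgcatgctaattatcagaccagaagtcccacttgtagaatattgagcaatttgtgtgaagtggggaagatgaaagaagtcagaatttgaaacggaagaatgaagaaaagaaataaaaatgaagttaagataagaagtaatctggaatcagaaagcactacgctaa

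Most exons were near an end of the scale. Near-constitutive exons, with a ψ of at least 0.95, numbered 7341 (34.5%), near-silent exons, with a ψ of at most 0.05, numbered 4324 (20.3%), and 7503 (35.2%) were intermediate, from 0.1 to 0.9. The median ψ was 0.79. A ψ of exactly 1 was given for 1659 exons and of exactly 0 for 1310. Intermediate exons were found in 4547 genes, near-silent exons in 2868, and in 1512 genes every member was near-constitutive.

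**Figure D1:**
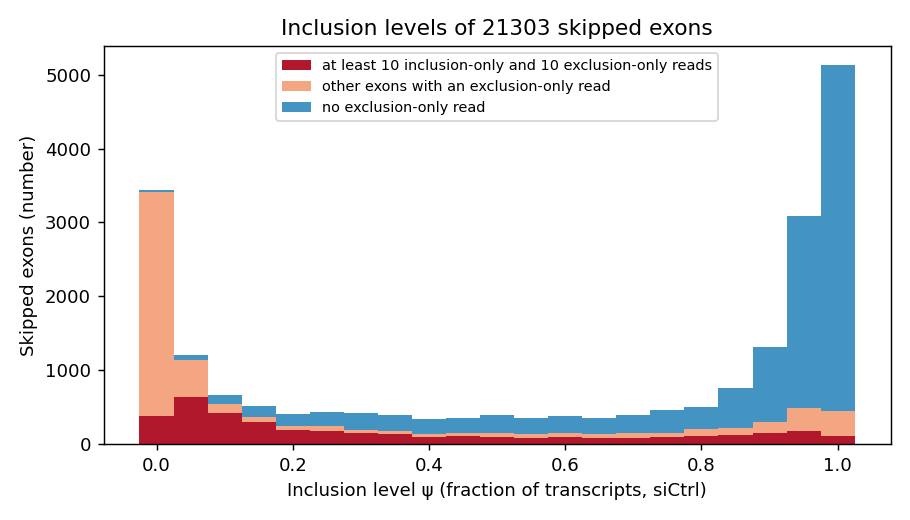
Number of skipped exons (y axis) by inclusion level ψ in siCtrl (x axis, bins of 0.05 centred on the ticks), stacked by read support. The near-silent end consists almost wholly of exons with exclusion-only reads, and most exons in the middle and at the high end have none.

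The reads behind ψ differed along the scale. Of the near-silent exons 98.3% had at least 1 exclusion-only read, whereas 57.0% of all members and 89.4% of near-constitutive exons had none. Among the 7503 intermediate exons 3281 (43.7%) had an exclusion-only read, and 2228 (29.7%) had at least 10 inclusion-only and 10 exclusion-only reads. The other 4222 intermediate exons had no read across the skipping junction. The exon of ACTB (beta-actin) that holds the start codon, chosen here after its values were seen, had a ψ of 0.23 from 21741 inclusion-only reads, no exclusion-only read and 195797 reads that fit both isoforms. The next ACTB exon, 240 nt long, had a ψ of 1 with 212021 inclusion-only and 89208 shared reads.

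A second estimate was therefore set beside ψ: the inclusion-only reads divided by 2, for the 2 junctions of the included exon, as a share of that number plus the exclusion-only reads (read-based ψ). It is high for long exons, whose bodies add inclusion-only reads, and it does not use shared reads. Without an exclusion-only read it is 1 by definition, so that ψ cannot lie above it. Over all members 4552 (21.4%) had a ψ more than 0.2 below the read-based value, and 0 had one more than 0.2 above it. Of the 4552, 3152 were exons with no exclusion-only read, where only the lower side was possible. For exons with at least 10 reads of each kind ψ was more than 0.2 below in 783 of 3797 (20.6%) and more than 0.2 above in 0. When these were put in 5 groups of like size by shared reads per informative read, the share rose from 5.26% (median 0.256 shared reads per informative read) to 35% (median 18.2). In exons with no exclusion-only read the median ψ was 0.98 in the group with the fewest shared reads and 0.53 in the group with the most. ψ thus moved with shared reads where the skipping junction gave no read. The grouping and ψ draw on the same reads of an event, so the trend is not independent evidence. What part coverage has in it was not tested. Where 2 or more events of an exon had enough reads (2228 exons), their ψ spanned a median of 0.07, and more than 0.2 in 29.1%.

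Among the deepest exons from 0.3 to 0.7 in protein-coding genes were several with no skipping read. SON, an RNA-binding protein of nuclear speckles, had a ψ of 0.33 for an exon of 5916 nt with 40451 inclusion-only and 0 exclusion-only reads. EIF4A1, an RNA helicase of translation initiation, had 0.55 with 23465 and 0, and FTH1, the ferritin heavy chain, 0.48 with 16200 and 0. RPS3 (0.65) and RPL12 (0.38), ribosomal proteins, also had none, RPLP0 (0.65) had 31 against 9753 and AKAP2 (0.7) had 3 against 22733. Of these 8 exons the 22 nt exon of RPS24, a ribosomal protein with well-known alternative 3' ends, had the most balanced reads, 2576 inclusion-only and 3685 exclusion-only, with a ψ of 0.34 (interval 0.33 to 0.35).

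With at least 10 reads of each kind required, a condition added after the data were seen, the deepest balanced exons also included EIF4A2, a paralog of EIF4A1, where a 111 nt exon seen in noncoding transcripts had a ψ of 0.39 with 2353 and 2387 reads. The 111 nt exon of CTTN, printed above, had 3126 and 1066 reads and a ψ of 0.57 (interval 0.55 to 0.58). ADRM1, a ubiquitin receptor of the proteasome, had 0.63 with 3176 and 515. NIN, a centrosomal protein (0.58; 5161 and 13), EIF4G2, a translation factor (0.62; 4363 and 70), and HM13, a signal peptide peptidase (0.66; 3312 and 17), had read-based values from 0.969 to 0.995.

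At the high end, 217 near-constitutive exons of protein-coding genes had at least 10 exclusion-only reads, so rare skipping could be measured. The deepest was the 3381 nt exon of PLEC, a cytoskeletal linker, with 250184 inclusion-only and 123 exclusion-only reads and a ψ of 1. NAP1L1, a histone chaperone, had 26479 and 46, and CALU, a calcium-binding protein of the secretory pathway, had 20284 and 37. NPM1, the nucleolar protein nucleophosmin, had 17500 and 123 with a ψ of 0.98, and MPRIP, a myosin phosphatase interactor, 10131 and 108 with 0.98. HNRNPC, ITGA3 and FOSL1 completed this group of 8, with ψ of 1, 0.99 and 0.99.

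At the low end the deepest exons were a 41 nt exon of ACTB annotated only in NMD transcripts (0 inclusion-only and 16958 exclusion-only reads, which allows a share of inclusion-only reads of up to 0.0177%) and a 33 nt coding exon of NAP1L1 (0 and 16742, up to 0.0179%). PPIA, the peptidyl-prolyl isomerase cyclophilin A, had 4 and 7631 reads, RPL35A, a ribosomal protein, 25 and 7387, and EFHD2, a calcium-binding protein, 25 and 6515. SNRPB, a core protein of the spliceosomal snRNPs, had a ψ of 0.02 for an NMD exon of 124 nt, with 239 inclusion-only and 7367 exclusion-only reads. YWHAE, a 14-3-3 protein, had 0.04 with 280 and 5778, and a 2787 nt exon of RPS24 0.01 with 1862 and 3685. This RPS24 exon ends with the 22 nt exon named above and shares its exclusion-only reads. A limit from a count of 0 is taken as 3 reads of the informative reads and covers counting error only.

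Exon choices known from the literature were looked up by gene and exon length. Of 90 entries 80 had a member, giving 84 exons in 63 genes: 47 intermediate, 22 near-silent, 11 near-constitutive and 4 in between. Of these exons 71 had an exclusion-only read and 44 had at least 10 reads of each kind. Their lengths had a median of 69 nt, and 68 (81.0%) were a multiple of 3. These lengths were set by the list used for the lookup, so they describe the list and not inclusion in these cells. In 23 of the 84 exons ψ was more than 0.2 below the read-based value, and in 0 more than 0.2 above it. For those without an exclusion-only read the read-based value is 1 by definition. Length alone did not always single out an exon: in APP it matched a second exon of 168 nt (ψ 1), and in CD44 a pair of exons of 129 nt.

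**Figure D2:**
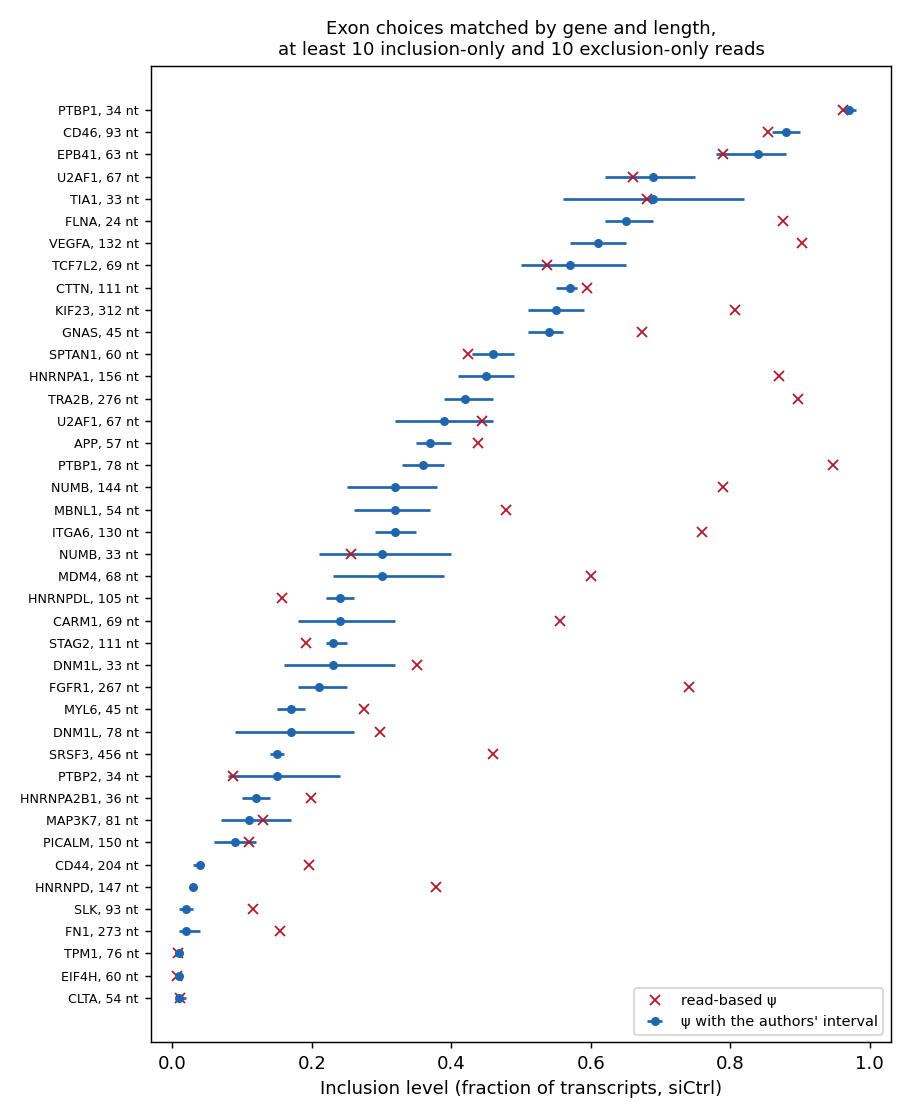
Inclusion levels in siCtrl (x axis) of 41 of the 44 matched exons with at least 10 inclusion-only and 10 exclusion-only reads, 1 per line. Circles with bars are ψ with the authors' interval, crosses the read-based ψ; the circles run from 0.01 (CLTA, 54 nt) to 0.97 (PTBP1, 34 nt), and crosses to the right of the bars mark exons where the estimates part, such as PTBP1, 78 nt.

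Genes of splicing regulators held a wide range of choices. PTBP1, which represses many exons through pyrimidine-rich sequence, kept its 34 nt exon at a ψ of 0.97 (interval 0.96 to 0.98; 2880 inclusion-only and 56 exclusion-only reads). PTBP2, its neuronal paralog, had an exon of the same length at 0.15 (0.08 to 0.24; 11 and 58), and loss of this exon is known to send either transcript to NMD. The 78 nt exon of PTBP1, which lies between RNA-binding domains, had a ψ of 0.36 but a read-based value of 0.947, from 754 and 21 reads. In U2AF1, which encodes the subunit that reads the AG of the 3' splice site, the upstream and the downstream exon of the pair had ψ of 0.69 (0.62 to 0.75) and 0.39 (0.32 to 0.46), with 187 and 48, and 126 and 79, inclusion-only and exclusion-only reads. Each of these events has the other exon of the pair as a flanking exon. Exclusion-only reads therefore come from transcripts that hold the partner, whereas inclusion-only reads can also come from transcripts without it. Neither ψ is thus a plain share of transcripts with that exon. TIA1, an RNA-binding protein of stress granules, had 0.69 for its 33 nt exon (0.56 to 0.82; 47 and 11). The MBNL1 exon of 54 nt, known for nuclear localisation, had 0.32 (0.26 to 0.37; 108 and 59), and that of 36 nt had 0.63 with no exclusion-only read, its 3 events lying between 0.27 and 0.68. RBFOX2 kept exons of 93 nt and 40 nt at 0.98 and 0.97.

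Among hnRNP genes, HNRNPA2B1 included the 36 nt exon that makes the B1 form at 0.12 (0.1 to 0.14; 145 and 293). HNRNPD, known as AUF1, had 0.58 for its 57 nt exon (310 and 3) and 0.03 for its 147 nt exon (804 and 662; read-based 0.378). The 147 nt exon had 27334 shared reads. HNRNPA1 had 0.45 for the 156 nt exon of the A1B form (654 and 49), and HNRNPDL 0.24 for a 105 nt exon annotated only in NMD transcripts (493 and 1314). CLK1, a kinase of SR proteins, had 0.95 for a 91 nt exon with no exclusion-only read.

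Matched exons in clathrin and membrane traffic genes ranged from a ψ of 0 to 0.88. CLTA, the clathrin light chain, had a ψ of 0.01 for its 54 nt exon (42 inclusion-only and 1907 exclusion-only reads) and of 0 for its 36 nt exon (0 and the same 1907, which allows up to 0.157%), and CLTB, the other light chain, 0 for its 54 nt exon (2 and 472). These inserts are known from neurons. PICALM, a clathrin assembly protein, had 0.88 for the 24 nt exon printed above (0.78 to 0.95; 53 and 4) and 0.09 for its 150 nt exon (31 and 125). DNM1L, the GTPase of mitochondrial fission, had 0.17 for its 78 nt exon (17 and 20), 0.23 for its 33 nt exon (27 and 25; 0.42 in its second event) and 0.01 for its 39 nt exon (0 and 77), and across the events of the first it ranged from 0.02 to 0.17. NUMB, an endocytic adaptor and Notch inhibitor, had 0.3 for the 33 nt exon in its phosphotyrosine-binding domain (0.21 to 0.4; 31 and 45) and 0.32 for the 144 nt exon in its proline-rich region, where 98 inclusion-only reads stood against 13 exclusion-only reads and the read-based value was 0.79. BIN1, a membrane-bending protein, skipped its 45 nt exon (ψ 0.01; 0 and 30, which allows a share of up to 10%).

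Several exons of cytoskeletal and adhesion genes were near-silent or low. ENAH, an actin regulator at the leading edge, had 0 inclusion-only and 403 exclusion-only reads for its 63 nt exon, known from epithelial cells, which allows a share of up to 0.744%. The 18 nt exon of CTNND1, p120-catenin, had 0 and 140, which allows up to 2.14%. In CD44, a hyaluronan receptor with a run of variable exons, the 90 nt exon had 0 and 658 reads, which allows up to 0.456%, and the 204 nt exon a ψ of 0.04 (322 and 658), but its 3 events ranged from 0.04 to 0.94, with 0.94 in the second deepest. The 102 nt CD44 exon had 0.06 from 178 inclusion-only reads, with no exclusion-only read and 8375 shared ones, and the pair of 129 nt had 0.02 (81 and 8) and 0.48 (45 and 0). ITGA6, the laminin receptor subunit, had 0.32 for its 130 nt exon (404 and 64; read-based 0.76). SLK, a kinase of the cytoskeleton, had 0.02 for its 93 nt exon and MAP3K7, the kinase TAK1, 0.11 for its 81 nt exon (15 and 50).

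Other contractile and matrix genes were split. CTTN, the Arp2/3 activator cortactin, had the ψ of 0.57 given above for the 111 nt exon that encodes an actin-binding repeat. FLNA, filamin A, had 0.65 for its 24 nt exon (0.62 to 0.69; 1058 and 75). MYL6, a myosin light chain, had 0.17 for the 45 nt exon (0.15 to 0.19; 277 and 365). The upstream and downstream TPM1 exons, which encode alternative segments of tropomyosin, had ψ of 0.99 (624 and 1) and 0.01 (72 and 4315), again each in an event flanked by its partner. SPTAN1, alpha-spectrin, had 0.46 for its 60 nt exon (0.43 to 0.49; 623 and 422) and 0.01 for its 15 nt exon (4 and 309). EPB41, protein 4.1R, kept the 63 nt exon of its spectrin- and actin-binding domain at 0.84 (0.78 to 0.88; 226 and 30), and CAPZB, an actin capping protein, had 0.01 for a 113 nt exon. In FN1, fibronectin, the 270 nt extra domain A had 0.26 from 578 inclusion-only reads and 1 exclusion-only read, and the 273 nt extra domain B 0.02 (16 and 44).

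In signalling genes inclusion ran from 0 to 1. RAC1, a GTPase of cell movement, had 3 inclusion-only and 187 exclusion-only reads for the 57 nt exon of the RAC1B form, with a ψ of 0. MET kept the 141 nt juxtamembrane exon at 1, with 948 inclusion-only reads and no exclusion-only read, which allows a share of exclusion-only reads of up to 0.316%. GNAS, a stimulatory G protein subunit, had 0.54 for its 45 nt exon (0.51 to 0.56; 1590 and 384), with its 3 events lying between 0.33 and 1. NF1, a RAS GTPase activator, had 0.76 for its 63 nt exon (0.62 to 0.87; 46 and 9), and VEGFA, a growth factor, 0.61 for its 132 nt exon (806 and 43). TSC2, an inhibitor of mTOR signalling, had 0.02 for a 129 nt exon (1 and 57) and 0.79 for a 69 nt exon without exclusion-only reads. YAP1, a Hippo pathway coactivator, had 0.36 for its 48 nt exon from 130 and 1 reads (0.17 in its second event), and ERBB2 0.89 for its 48 nt exon from 61 and 0. FGFR1 had 0.21 for the 267 nt exon of the first immunoglobulin domain (206 and 36; read-based 0.741; 0.46 in its second event).

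MCL1, an inhibitor of apoptosis, kept its 248 nt exon at 1 with 8362 inclusion-only and 3 exclusion-only reads, and FAS, a death receptor, kept its 63 nt transmembrane exon at 0.98 (89 and 0). CASP2 had 0.01 for a 61 nt exon of noncoding transcripts (0 and 71, which allows a share of up to 4.22%). MDM4, an inhibitor of p53, had 0.3 for its 68 nt exon (0.23 to 0.39; 54 and 18; read-based 0.6), whose loss shifts the frame. In cell division, KIF23, a kinesin of the midbody, had 0.55 for its 312 nt exon (819 and 98), and STAG2, a cohesin subunit, 0.23 for its 111 nt exon (0.22 to 0.25; 688 and 1449). The 3426 nt exon of BRCA1, a DNA repair protein, had 0.99 with 6797 and 0 reads.

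Matched exons of transcription and chromatin regulators ranged from a ψ of 0 to 0.89. KDM1A, a histone demethylase, had 0 inclusion-only and 383 exclusion-only reads for its 12 nt neuronal exon, which allows up to 0.783%, but 0.89 for its 60 nt exon (205 and 1). The MEF2 transcription factors had 0.01 for the 24 nt exon of MEF2A (0 and 181, up to 1.66%) and 0.09 for the 21 nt exon of MEF2D (0.04 to 0.16; 6 and 17), both known from muscle and nerve. TCF7L2, a Wnt pathway transcription factor, had 0.57 for a 69 nt exon (0.5 to 0.65; 130 and 56), and CARM1, an arginine methyltransferase, 0.24 for its 69 nt exon (45 and 18; read-based 0.556). EIF4H, an initiation factor, had 0.01 for its 60 nt exon (32 and 2211). APP, the amyloid precursor, had 0.37 for its 57 nt exon (650 and 417; 0.17 in its second event) and 0.37 for the 168 nt protease inhibitor exon, the latter with 2361 inclusion-only and 2 exclusion-only reads. CD46, a complement regulator, had 0.88 for a 93 nt exon of its cytoplasmic tail (1226 and 105), ATP5F1C, an ATP synthase subunit, 0.98 for a 37 nt exon, and VLDLR, a lipoprotein receptor, 0.14 for its 84 nt exon (7 and 15).

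The 10 entries without a member were the exons sought in PKM, INSR, LRP8, ADD3, TPM2, TPM3, MST1R and FGFR2 (2 entries) and the 18 nt exon of SPTAN1. The paired PKM exons of 167 nt had no event with 10 or more informative reads in the control file and were not analysed here. In INSR, TPM2 and FGFR2 no exon of the gene was a member.

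Exon length and inclusion went together at the short end. The median length was 120 nt (quartiles 84 and 171, longest 12708 nt), and it was 99 nt for near-silent, 127 nt for intermediate and 123 nt for near-constitutive exons. Of the 434 exons of 30 nt or less 60.6% were near-silent and 12.7% near-constitutive, against 24% and 34.7% at 51 to 100 nt and 9.52% and 37.8% over 500 nt. The order depended on read support: among exons with at least 10 reads of each kind near-silent exons had a median of 140 nt and intermediate exons of 117 nt. A long exon gathers more inclusion-only reads at the same ψ, so the read minimum itself bears on length.

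**Figure D3:**
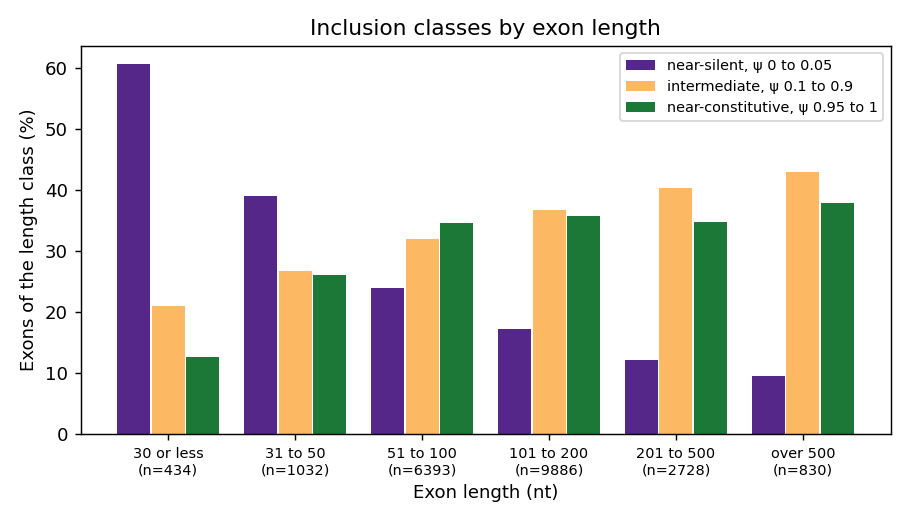
Share of exons (y axis, percent of each length class) that were near-silent, intermediate or near-constitutive in siCtrl, by exon length in nt (x axis, n under each class). Near-silent exons fall from 60.6% at 30 nt or less to 9.52% over 500 nt.

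The shortest intermediate event with at least 10 reads of each kind was a 3 nt block of AP2M1, the cargo-binding subunit of the clathrin adaptor AP2, with a ψ of 0.12 (0.08 to 0.15; 37 and 252). The next exon of this event starts after a gap of 4 nt, too short for an intron that the spliceosome removes, so the block cannot be taken as a cassette exon, and it was the 1 member with a flanking intron under 30 nt. The next shortest were 9 nt exons of MAP4K4, a kinase (0.17; 69 and 270), and AP1B1, an adaptor subunit (0.21; 13 and 44), and 12 nt exons of DNM2, the GTPase dynamin 2 (0.62; 96 and 35), and INCENP, a subunit of the chromosomal passenger complex (0.14; 31 and 128). All 5 lengths, that of the AP2M1 block included, are multiples of 3. So were 76.3% of the 76 exons of 30 nt or less with at least 10 reads of each kind. The longest intermediate exons with such reads were those of ASPM, a spindle pole protein (4755 nt, ψ 0.82, 14602 and 36), BOD1L1 (2923 nt, 0.17), SREK1 (2868 nt, 0.33), PIGT (2463 nt, 0.12) and MFF (2169 nt, 0.34). Those of SREK1, PIGT and MFF were annotated in noncoding transcripts only and that of BOD1L1 in NMD transcripts only. The MFF exon starts with a 112 nt member and ends with a 221 nt member, and holds the sequence between them. The PIGT exon spans members of 138 and 208 nt in the same way. Inclusion-only reads of both can thus come from the shorter exons, and neither can be taken as a plain cassette exon.

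Reading frame separated the classes among coding exons (12087 members inside the coding sequence of a protein-coding transcript). A length that is a multiple of 3 was found in 79.2% of 982 near-silent exons (exact 95% interval 76.6 to 81.7), 50.7% of 4349 intermediate exons (49.2 to 52.2) and 42.7% of 5613 near-constitutive exons (41.4 to 44). Intervals treat exons as independent and cover their number only. Intermediate exons split by read support. Those with at least 10 reads of each kind had 66.9% of 1080 (64.1 to 69.8), whereas those with no exclusion-only read had 43.9% of 2773 (42.1 to 45.8), near the 42.4% of 5006 near-constitutive exons without such a read. In 5' untranslated exons the share was 33.5%, 33.4% and 29.4% from near-silent to near-constitutive.

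**Figure D4:**
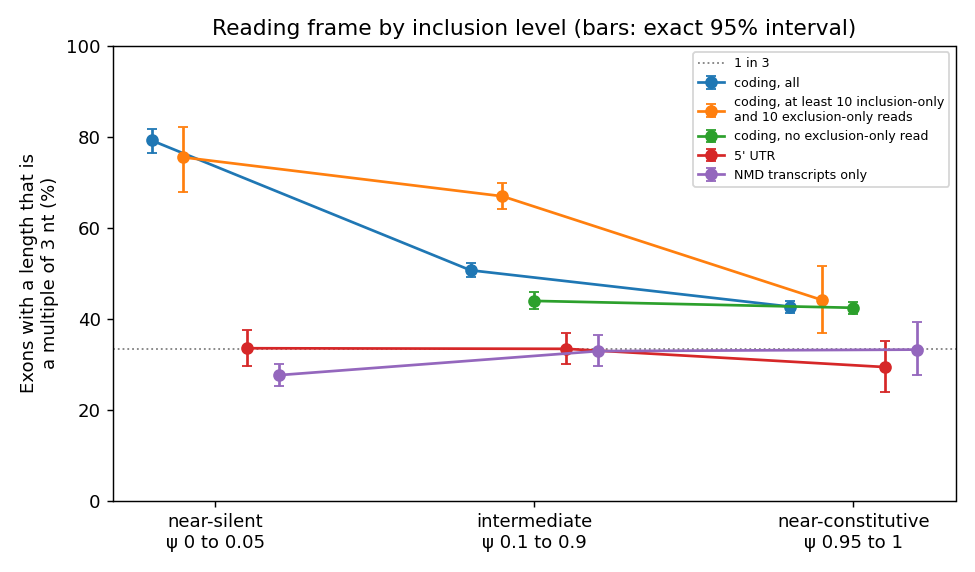
Share of exons with a length that is a multiple of 3 nt (y axis, percent) by inclusion class in siCtrl (x axis), for coding exons by read support, 5' untranslated exons and exons seen only in NMD transcripts. Points are shares and bars exact 95% intervals, groups of fewer than 50 exons are left out, and the dotted line is 1 in 3. Coding intermediate exons with at least 10 reads of each kind lie at 66.9% and those without an exclusion-only read at 43.9%.

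The annotation enters this contrast, because an exon that breaks the frame is often annotated in NMD transcripts only and then does not count as coding. With coding and NMD-only exons pooled, multiples of 3 made up 48.6% of near-silent, 48.1% of intermediate and 42.2% of near-constitutive exons. With at least 10 reads of each kind, these shares were 45.5%, 58.9% and 44.2%. The high share in intermediate exons with reads of each kind was therefore also seen over both sets, whereas that in near-silent exons was not. Within coding exons of 51 to 100 nt the shares were 78.9% (near-silent), 52.1% (intermediate) and 43.7% (near-constitutive), and above 100 up to 200 nt 68.8%, 47.6% and 41.8%.

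Inclusion differed by place in the transcript. Coding exons had a median ψ of 0.93, and exons with a start or stop codon 0.88 (1582 exons). Exons of 5' untranslated regions had 0.24 (1838 exons, 31.5% near-silent, 41.1% intermediate), and of these 66.3% had an exclusion-only read, against 28.6% of coding exons. Exons annotated only in noncoding transcripts of coding genes had a median of 0.08 (1592), exons of noncoding genes 0.88 (709) and those not annotated in GENCODE 0.2 (787). The 2692 exons seen only in NMD transcripts had a median of 0.04, with 1431 near-silent, 742 intermediate and 268 near-constitutive. In 1931 of them an annotated stop codon lay inside the exon.

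Among the exons annotated in NMD transcripts only, those of splicing regulators were described singly. Over the SR protein, hnRNP and other regulator genes there were 46 in 29 genes, 34 of them with a stop inside. Of the 46, 27 were near-silent, 11 intermediate and 1 near-constitutive, and the median ψ was 0.01, beside 1431 near-silent of 2692 (53.2%) and a median of 0.04 over all NMD-only exons. All 11 intermediate exons had at least 10 reads of each kind, beside 324 of 742 over all NMD-only exons. They were not all separate measurements: the RBM39 exons of 155 and 73 nt shared 497 exclusion-only reads, and both SRSF11 exons shared 133. The 46 also hold overlapping versions of an exon, as in SNRNP70, LUC7L3 and SRSF4. Depth differed too, with list medians of 473.5 (SR proteins), 987 (hnRNPs) and 240.5 (other regulators) informative reads, beside 126 over all members. The TRA2B exon printed above, which the protein is known to bind in its own transcript, had 0.42 (0.39 to 0.46; 680 and 39), and a 79 nt exon of its paralog TRA2A 0.56 (0.47 to 0.66; 96 and 24). SRSF3 had 0.15 for its 456 nt exon (0.14 to 0.16; 1104 and 649). Lower values were found for SRSF2 (0.09; 364 and 1472), SRSF7 (449 nt, 0.08; 393 and 235), SRSF6 (268 nt, 0.04; 491 and 4123) and SRSF4 (195 nt, 0.01; 10 and 129). RBM39, a U2AF-like factor, had 7 such exons, at 0.36 (138 nt; 123 and 49), 0.18 (155 nt; 0.52 in its second event), 0.11 (73 nt), 0.1 (156 nt), 0.02 (72 nt), 0.01 (53 nt) and 0 (55 nt). HNRNPH1 had 0.1 (134 nt; 197 and 243), SRSF11 0.2 and 0.17 (109 and 117 nt) and HNRNPL 0.01 (70 nt; 20 and 520). The exons of TRA2A and SRSF2 held no annotated stop codon of an NMD transcript. Nor did the 109 nt exon of SRSF11 and the 53 nt exon of RBM39. Since NMD removes transcripts that carry NMD-only exons, ψ gives their share among the RNA that remained and not among the RNA made.

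Sequence and gene structure were described for the same classes. Over the 20516 annotated members 80.4% ended in G and 56% in AG, the usual bases before a 5' splice site, and the share ending in G was 76.9% for near-silent and 81.5% for near-constitutive exons. A first base of G was found in 36.7% of near-silent and 47% of near-constitutive exons. The hexamer GAAGAA, a purine-rich sequence of the kind bound by TRA2B, searched on the transcribed strand only, was present in 12.9% of all annotated members. It was in 7.25% of near-silent, 12.2% of intermediate and 17.1% of near-constitutive exons. Within exons above 100 and up to 200 nt, whose median lengths in the 3 classes lay between 129 and 138 nt, the shares were 8.22%, 11.1% and 16.2%. A match is a description of the letters and not a bound site. The classes also differed in make-up. Of the near-silent exons 22.7% were coding and 33.1% NMD-only, against 76.5% and 3.65% of the near-constitutive exons. What part this has in the shares of bases and of the hexamer was not tested. The median upstream intron of the event measured 1952 nt for near-silent and 2452 nt for near-constitutive exons, and the downstream intron 2045 and 2050 nt. GC content had medians of 49.3% and 48.3%.

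Gene lists of 13 functions were counted beside all members, of which 20.3% were near-silent and 10.5% intermediate with at least 10 reads of each kind. These counts describe the lists and were not tested. Actin and adhesion genes had the highest near-silent share of the lists (74 of 178, 41.6%), followed by SR proteins (15 of 40, 37.5%), and DNA repair genes the lowest (20 of 138, 14.5%). Supported intermediate exons made up 27.5% of the SR protein exons (11 of 40), 24% of those in genes whose exons are known to switch in the epithelial-mesenchymal transition (43 of 179), 22.9% in receptor and RAS signalling (22 of 96) and 21.7% in hnRNPs (18 of 83). They made up 6.52% in DNA repair (9 of 138) and 7.95% in ribosomal proteins (7 of 88). Ribosomal protein exons had 2408 informative reads at the median, and 36 of the 88 were intermediate, but only 12 of those 36 had any exclusion-only read. Depth differs between lists, with a median of 473.5 informative reads for SR proteins and 125 for DNA repair.

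**Figure D5:**
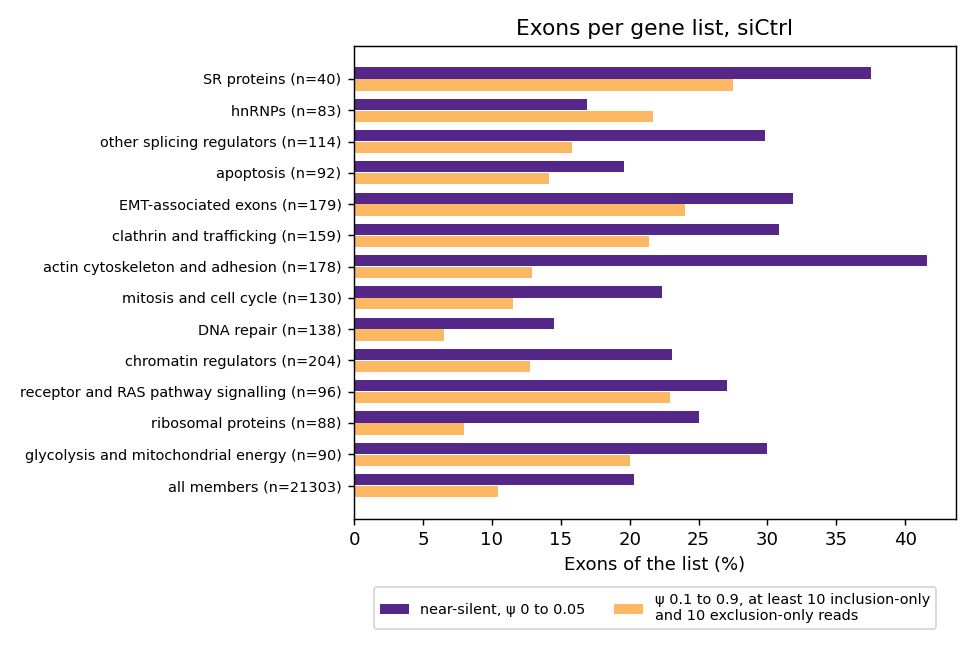
Share of exons (x axis, percent of each list) that were near-silent, or intermediate with at least 10 inclusion-only and 10 exclusion-only reads, in siCtrl, for 13 gene lists and all members (y axis, number of exons in brackets). Actin and adhesion genes have 41.6% near-silent exons, and SR proteins 27.5% supported intermediate exons.

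Values for the deepest intermediate exons of the lists that had exclusion-only reads follow. Among hnRNPs and related genes, PCBP2 had 0.77 for a 93 nt exon (4964 inclusion-only and 604 exclusion-only reads), HNRNPM 0.74 for a 45 nt exon (3073 and 712) and HNRNPH3 0.86 for a 139 nt exon (4518 and 199). NASP, a histone chaperone, had 0.21 for the 1017 nt exon of its long form (6587 and 2490), and DNMT1, the maintenance DNA methyltransferase, 0.2 for a 48 nt exon (360 and 667). EZH2, the methyltransferase of Polycomb complex 2, had 0.73 for a 117 nt exon (465 and 13).

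Among cell cycle genes ECT2, a regulator of cytokinesis, had 0.76 for a 93 nt exon (1680 and 309), and CCNB1, cyclin B1, 0.72 for a 159 nt exon with 3932 inclusion-only and 16 exclusion-only reads. In signalling, AXL, a receptor kinase of mesenchymal-like breast cancer cells, had 0.35 for a 27 nt exon (0.31 to 0.38; 335 and 248), and MAP4K4 0.5 for a 192 nt exon (1581 and 36). APLP2, a relative of APP, had 0.82 for a 153 nt exon (7631 and 132) and MPRIP 0.35 for a 63 nt exon (703 and 1107). In DNA repair, MMS19 had 0.35 for a 117 nt exon (128 and 79), ERCC1 0.65 for a 72 nt exon (241 and 41) and FANCI 0.74 for a 180 nt exon (657 and 23). SDHA, a subunit of respiratory complex II, had 0.9 for a 144 nt exon (8224 and 570), and SNX14, a sorting nexin, 0.24 for a 27 nt exon (118 and 282). In apoptosis genes, BIRC5, survivin, had 0.67 for an 816 nt exon of noncoding transcripts (2837 and 246), DIABLO, an inhibitor of IAP proteins, 0.1 (162 nt; 74 and 188), and BID 0.61 from 130 and 3 reads (0.96 in its second event).

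Supported intermediate exons were spread thinly: 1613 genes had at least 1, of which 1188 had 1, 305 had 2 and 120 had 3 or more. EEF1D, an elongation factor subunit, had the most, 11 of its 16 members with ψ from 0.11 to 0.87, but these included 8 overlapping versions of 5' untranslated exons. DAG1, dystroglycan, had 7, from 0.12 to 0.62, 6 of them in its 5' untranslated region. All of these 7 but the 85 nt exon shared the same 60 exclusion-only reads. The DAG1 exons of 57 and 52 nt overlapped, as did those of 151 and 147 nt. MFF, the receptor for DNM1L on mitochondria, also had 7, and 3 of its coding exons shared a skipping junction with 57 exclusion-only reads: those of 75, 159 and 60 nt had ψ of 0.61, 0.55 and 0.38. The 2169 nt exon of MFF spans its exons of 112, 92 and 221 nt. CBWD1 had 7 and PIGT, a subunit of the GPI transamidase, 6, with overlapping versions in both genes. The PIGT exons shared skipping junctions with 28 or 14 exclusion-only reads. CBWD1 has near-identical copies elsewhere in the genome, so its reads may be shared between genes and its values are uncertain.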

How the data were processed

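The 4 libraries of total RNA, 2 per group, were processed with STAR 2.7 on hg38; this comes from the submitters' processing notes. The authors deposited 1 inclusion level per skipped-exon event and group, a fraction from 0 to 1 that MISO estimated, with an interval and the number of reads per compatibility class, per the file headers. Which MISO version and events were used, what level the interval has, and how the libraries of a group entered 1 value: not given in the sources used here.

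From the control file, informative reads were summed per event, the deepest event per exon was kept with at least 20 of them, and exons were matched to GENCODE release 29 by boundaries (4 had no gene). Coding means inside the coding sequence of a protein-coding transcript. Sequence came from GENCODE transcripts; splice sites in introns were not analysed here. Intervals of shares are exact (Clopper-Pearson, 95%). The members, the 13 gene lists, the 90 exon choices and the rule for named exons were chosen with earlier results of these data known. The rule named exons matched by gene and length, the 8 deepest protein-coding exons per ψ class, up to 4 per list, the 5 shortest and 5 longest, and the 5 genes with the most intermediate exons. Parsing and exon sequences were tested on the files and the read-based ψ on simulated data. Some named exons are not reported here. Alternatives changed the read minimum, event, estimator, interval width, read support, region and thresholds. Scripts ran in Python 3.11.15 with matplotlib 3.10.9, scipy 1.17.1, pandas 2.3.3 and numpy 2.4.6.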

Additional observations from a re-analysis of the deposited data

How the results depend on the processing

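The class shares moved with most settings. Near-constitutive, intermediate and near-silent exons made up, in this order, 30.1%, 38.5%, 21.1% with a minimum of 10 informative reads, then 43.1%, 31.5%, 17.5% with 50 reads, then 49.9%, 28.4%, 15.4% with 100 reads, then 57.1%, 24.4%, 13.1% with 200 reads, then 35.3%, 36.3%, 18.2% with every event kept, then 62.7%, 15.4%, 17% with the read-based ψ, then 42.4%, 23.4%, 25% with intervals at most 0.2 wide, then 48.2%, 12.7%, 33% with intervals at most 0.1 wide, then 8.51%, 35.8%, 46.4% with at least 1 exclusion-only read, then 46.4%, 36%, 8.12% with coding exons only, then 6.06%, 58.7%, 21% with at least 10 reads of each kind (added after the data were seen). With GENCODE exons only, near-constitutive and near-silent shares were 35.1% and 19.7%, with thresholds of 0.9 and 0.1 42.8% and 23.9%, and with 0.99 and 0.01 18.1% and 13.1%. Median ψ over events and the event with most reads of any class kept each of these shares within its exact interval. Median lengths left the interval of the main value as follows: near-constitutive 126 nt with 100 reads, 130 nt with 200 reads, 128 nt with the read-based ψ, 114 nt with at least 1 exclusion-only read, 117 nt with coding exons only, 116.5 nt with at least 10 reads of each kind (added after the data were seen); intermediate 130 nt with 50 reads, 137 nt with 100 reads, 144 nt with 200 reads, 121 nt with the read-based ψ, 140 nt with intervals at most 0.1 wide, 118 nt with at least 1 exclusion-only read, 117 nt with coding exons only, 117 nt with at least 10 reads of each kind (added after the data were seen); near-silent 105 nt with 200 reads, 93 nt with the read-based ψ, 72 nt with coding exons only, 140 nt with at least 10 reads of each kind (added after the data were seen). The share of coding exons with a length that is a multiple of 3 became, for near-constitutive exons, 44.8% with at least 1 exclusion-only read, 44.2% with at least 10 reads of each kind (added after the data were seen); for intermediate exons 52.7% with 100 reads, 53.6% with 200 reads, 65.7% with the read-based ψ, 56.5% with intervals at most 0.2 wide, 60.1% with intervals at most 0.1 wide, 62.5% with at least 1 exclusion-only read, 66.9% with at least 10 reads of each kind (added after the data were seen); for near-silent exons 75.5% with at least 10 reads of each kind (added after the data were seen). Near-silent exons had the highest and near-constitutive exons the lowest such share under every alternative run, but not when NMD-only exons were added with at least 10 reads of each kind, as the report gives. Over all lists 526 exons were intermediate, and 284 with at least 1 exclusion-only read required. Of 153 named exons, the read-based ψ lay within the authors' interval for 57, above it for 84 and below it for 12. Of 24 with several events, the median over events lay within it for 12, and the second deepest event for 6. Depth limits these values: 18.7% of exons have intervals wider than 0.2. No replicate could be left out, and no spread between libraries is known. No paired analysis was possible because the file gives 1 value per group and no comparison was made.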
